A study of Mus musculus with 4 samples.

Results

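Lrp2, Cubn, Amn, Dab2, Ctsb, Ctsd and Ctsl, grouped under the working name of endocytic receptor genes of outer cells, were followed through mouse preimplantation development. They were taken by symbol from a fixed list and make up 7 of the 20171 genes measured. Of 68012 isoforms, 68 were theirs, from 3 of Amn to 19 of Dab2, and none was from Cubn.

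The study read full-length cDNA of single cells on the PacBio platform (HIT-scISOseq), with a cell barcode and a unique molecular identifier (UMI) on each molecule. Levels are copies per 100000 UMIs of a cell. Of 161 cells, 10 were oocytes and 9 zygotes, 10 came from early 2-cell embryos (E2C) and 11 from late ones (L2C). The 4-cell stage gave 17, the 8-cell stage 26, the 16-cell stage 38, the 32-cell stage 22 and the blastocyst 13, beside 5 cultured embryonic stem cells (mESC). An oocyte, zygote or embryo is named for 121 cells, and the replicate was this unit (10 and 9 of the first kinds, then 5 E2C and 6 L2C embryos, 5 at 4-cell, and 4 at 8-cell and at 16-cell, 43 in all). According to the methods, C57BL/6J females aged 6 to 8 weeks were superovulated and mated with DBA/2NCrl males, while the labels give the cross as DBA/2J x C57BL/6J. Unmated oocytes were taken 20 h after hCG, zygotes at 22 to 24 h, E2C at 30 to 32 h, L2C at 46 to 48 h and 4-cell embryos at 54 to 56 h. The 8-cell embryos were taken at 68 to 70 h, 16-cell and 32-cell embryos in the same window of 78 to 80 h, and blastocysts at 88 to 90 h. The mESC were of the E14 Tg2A line, which stands for a single cultured line. The 32-cell, blastocyst and mESC cells name no embryo, so they are given as ranges, medians and pooled UMIs without a test. The cell names give no sequencing run, so run and stage cannot be told apart, and embryo numbers shared between runs would go unseen. They hold no barcodes, and all 161 are different.

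Megalin, encoded by Lrp2, and cubilin, encoded by Cubn, are large cell surface receptors that bind many proteins, vitamin carriers and lipoproteins. Cubilin has no tail in the cell and depends on amnionless, encoded by Amn, to reach the surface, while the adaptor Dab2 ties receptor tails to clathrin, and the cargo ends in lysosomes, where cathepsins cut it. Outer cells of the morula, the trophectoderm and later the visceral endoderm are known for this kind of uptake.

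Lrp2 and Dab2 were the members that followed outer cell markers from cell to cell, and both rose at the 16-cell stage. Lrp2 went from 3 UMIs in all 26 8-cell blastomeres to 117 UMIs in 38 16-cell blastomeres. Dab2 was an oocyte transcript first and was low in L2C embryos and in most 4-cell and 8-cell embryos. The exceptions were 4-cell embryo 2, on 1 UMI, and 8-cell embryo 1. Dab2 was higher again at 16-cell, where molecules that showed a first exon used another than most such oocyte molecules. The 16-cell molecules that spanned an exon of 654 bases mostly lacked it. The 3 cathepsin genes followed other courses, since Ctsb and Ctsl were highest at L2C and 4-cell and Ctsd was highest from the 8-cell stage on. Cubn stayed at the counting floor, and Amn was low throughout.

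Changes between stages were tested with limma on the embryo means, and a gene was called where the log2 fold change passed 1 in either direction with an unadjusted p under 0.01. The fit held 7 stages, so each SE and p rests on a spread shared by all of them. Of the 7 members, 6 passed the filter of at least 1 copy in at least 4 embryos, and Cubn did not. From L2C to the 4-cell stage 1 of the 6 was called (Ctsd), beside 6.69% of the 11682 genes tested. From 4-cell to 8-cell 3 were called (Dab2, Ctsb and Ctsl), beside 15.0% of genes, and from 8-cell to 16-cell 2 (Lrp2 and Dab2), beside 3.36%. Over the whole span from 4-cell to 16-cell 5 were called (all but Amn), beside 17.7%. Without 4-cell embryo 4, 4-cell embryo 5 or 8-cell embryo 1 none of the 3 calls from 4-cell to 8-cell was kept, and the only member called was Ctsd. The number of genes called from L2C to 4-cell, 782, was 430 without 4-cell embryo 4 and 477 without 4-cell embryo 5. With so few members these counts are read gene by gene, and the comparisons that share a stage also share its embryos.

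**Figure D1:**
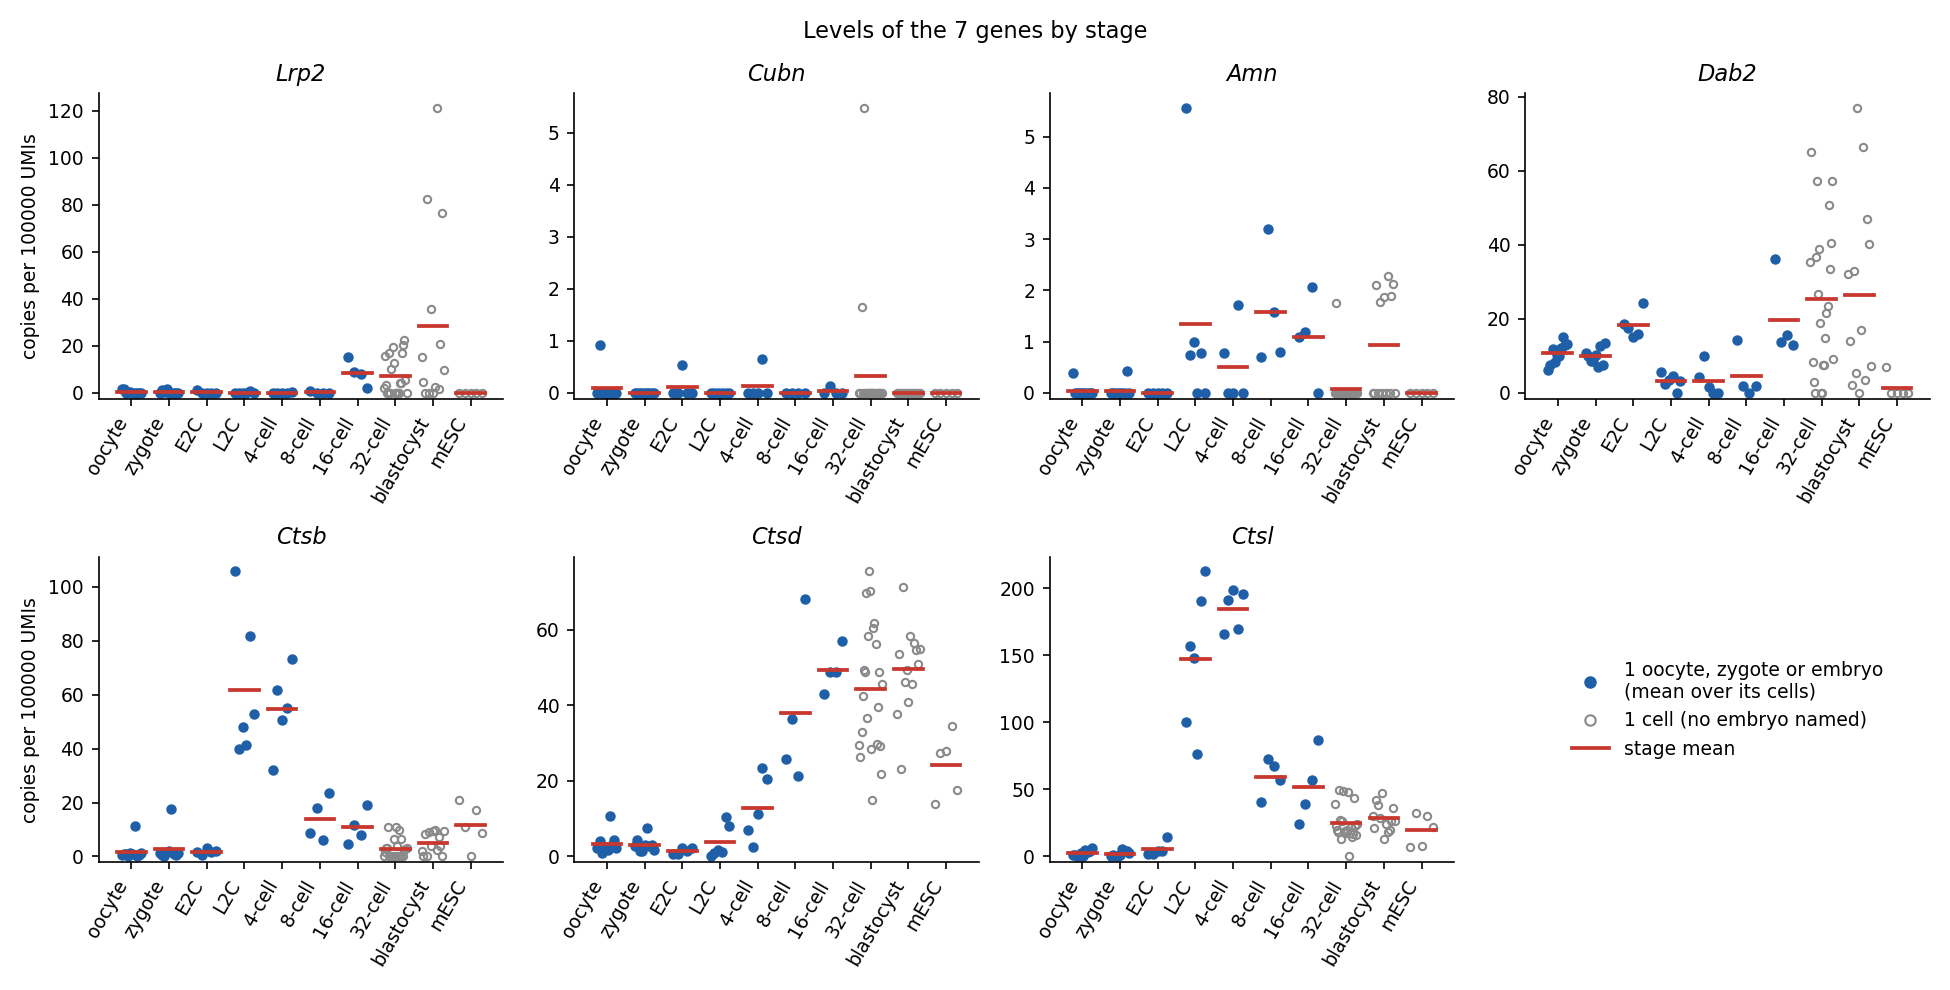
Level of each member at each stage. Filled points are means over the cells of an oocyte, zygote or embryo, open points are single cells of stages without embryo names, and the bar is the stage mean.

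Megalin transcripts were close to absent until the 8-cell stage and present in every 16-cell embryo. Lrp2 lay between 0 and 1.86 copies in oocytes, 0 and 1.55 in zygotes, 0 and 1.09 in E2C and 0 and 0.861 in L2C embryos. It was 0, 0, 0, 0 and 0.595 in the 4-cell embryos, 1.04, 0, 0 and 0 in the 8-cell embryos, and 15.3, 8.71, 8.20 and 2.165 in the 16-cell embryos. All 16-cell embryos were therefore above all 8-cell embryos, although the lowest of them rested on 1 UMI in 1 of its 5 cells. From 8-cell to 16-cell, with 4 embryos each, Lrp2 rose by a log2 fold change of 3.09 (limma, SE 0.411, adjusted p = 3.16e-06). This SE and p rest on a spread shared by 7 stages, in most of which Lrp2 was near 0. The 16-cell embryos alone had an SD of 5.37 copies, and the highest, embryo 1, had a weight of 2.07 beside 0.794, 0.574 and 0.547. Since the 8-cell stage held 3 UMIs, the fold change depends on the added constant. Pooled UMIs gave a ratio of 25.8 (95% interval of counting error 8.63 to 127.1). Of the 117 UMIs at 16-cell 76 were from embryo 1, without which the ratio was 14.3, and all 3 at 8-cell were from 8-cell embryo 1. The rise was 2.32 without 16-cell embryo 1, and with the median over cells in place of the mean it was 0.79 and no longer called. No change was called from L2C to 4-cell (0.04) or from 4-cell to 8-cell (0.13).

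Later cells spread widely. In the 32-cell stage Lrp2 ran from 0 to 22.5 copies over 22 cells with a median of 3.77, and pooled UMIs gave 7.47 (95% interval 5.66 to 9.68). In blastocyst cells it ran from 0 to 121.2 with a median of 9.56 and a pooled level of 24.6 (20.8 to 28.9), and in 5 mESC no UMI was found. The share of cells with an Lrp2 UMI was 11.5% at 8-cell, 44.7% at 16-cell, 59.1% at 32-cell and 76.9% in blastocysts, where median depths were 33030, 32481, 34772.5 and 47437 UMIs. All 3 positive 8-cell blastomeres were from embryo 1, and the other embryos had 0 of 18. Thinned to 10000 UMIs a cell (3 of the 16-cell blastomeres held fewer and were left out), the expected shares were 3.20%, 33.95%, 39.4% and 55.3%, so the order of these stages was the same at equal depth. A few cells carried much of the transcript. The top 5 of 38 16-cell blastomeres held 78 of 117 UMIs (66.7%, with 16.9% of the depth), and the top 3 held 45.3%. At 32-cell the top 5 of 22 cells held 70.2% (with 31.6% of the depth), and the top 3 held 47.4%. The top 3 of 13 blastocyst cells held 107 of 149 (71.8%, with 23.4% of the depth), and the top 5 held 89.3%.

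The Lrp2 isoforms showed only the tail of this long transcript. All 11 were incomplete matches to the reference of 357 to 1639 bases with 2 to 12 exons, where the longest annotated transcript has 15460 bases and 79 exons. Their 3-prime ends fell between chr2:69425520-69425523 on the minus strand, short of the annotated end of the gene at base 69424340, and their 5-prime ends lay at 11 different positions. Together they held 134 of 348 Lrp2 UMIs (38.5%), 56 at 16-cell, 20 at 32-cell and 51 in blastocysts. No statement on the start of Lrp2 transcripts can be made from them.

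The promoters of Lrp2 and Dab2 are shown because both genes rose from 8-cell to 16-cell and followed outer cell markers from cell to cell. Their courses differed before, and 13 of 30 16-cell cells with Dab2 held no Lrp2 UMI. A shared control of the 2 genes was not tested. Both are the 250 bases before a start annotated by RefSeq on GRCm38.p6, the first on the minus strand (chr2:69586030-69586279) and the second on the plus strand at the upstream first exon of Dab2 (chr15:6386498-6386747). The Dab2 isoform with the farthest upstream start (15 UMIs) begins at base 6386600, inside the printed stretch. Capitals mark matches to GCCNNNGGC, a motif of AP-2 factors, and to GGGCGG, a motif of SP and KLF factors.
Lrp2 promoter: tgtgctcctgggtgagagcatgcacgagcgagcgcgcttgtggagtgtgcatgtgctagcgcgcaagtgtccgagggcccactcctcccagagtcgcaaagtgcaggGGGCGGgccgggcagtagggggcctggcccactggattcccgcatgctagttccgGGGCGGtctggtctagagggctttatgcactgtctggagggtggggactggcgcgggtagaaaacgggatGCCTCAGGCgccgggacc
Dab2 upstream promoter: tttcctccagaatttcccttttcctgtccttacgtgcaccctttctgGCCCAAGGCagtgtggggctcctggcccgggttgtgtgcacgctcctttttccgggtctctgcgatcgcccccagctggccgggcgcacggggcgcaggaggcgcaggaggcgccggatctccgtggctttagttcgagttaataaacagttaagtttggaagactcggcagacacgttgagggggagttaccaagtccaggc
Motifs were searched on both strands in windows that run 50 bases past the start. GCCNNNGGC was found in 16.6% of 32851 promoters and GGGCGG in 35.7%. Of the other motifs searched, GGAATG of TEAD factors was found in 14.7%, GATAAG of GATA factors in 7.44% and the E-box CACGTG in 7.15%. The Lrp2 window held 1 GCCNNNGGC and 2 GGGCGG. The Dab2 window held 1 GCCNNNGGC and, past the printed stretch, 1 GGAATG at base 272 of the window. GGGCGG also occurred in the windows of Ctsd (2) and Amn (1), and GATAAG (1) in the other Dab2 window at the far promoter. The E-box occurred in the windows of Ctsd (2), Amn (1) and Ctsl (1). A window was available for 6 of 7 members, and Ctsb had none. A match is a description of letters and not a site in use.

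Cubilin and amnionless, the other receptor pair, gave little signal. Cubn had 7 UMIs in all 161 cells, 2 of them at 32-cell and none in 8-cell, blastocyst or mESC cells, and no isoform. Amn had 44 UMIs in all, 4 at L2C, 4 at 4-cell, 12 at 8-cell, 15 at 16-cell, 1 at 32-cell and 6 in blastocysts. It was 0.705, 3.20, 1.59 and 0.793 in 8-cell embryos and 1.09, 1.19, 2.06 and 0 in 16-cell embryos, ranges that overlap, and no change was called (0.62 from 4-cell to 8-cell, adjusted p = 0.173). Each of its 3 isoforms ended at the same base of chromosome 12, and 1 of them, with 8 UMIs, matched an annotated transcript over its 12 exons. Cubn never passed the floor of 3 UMIs in a stage, while Amn did at L2C, 4-cell, 8-cell and 16-cell and in blastocysts.

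Dab2, the adaptor, was by stage mean the most abundant member in oocytes, zygotes and E2C embryos. It was present in each of 10 oocytes (6.25 to 15.1 copies, median 11.01), each of 9 zygotes (7.13 to 13.4, median 10.1) and each E2C embryo (15.0 to 24.2, median 17.7). In L2C embryos it was 0 to 5.56 with a median of 3.39, below all E2C embryos, and pooled UMIs gave a ratio of L2C to E2C of 0.169 (95% interval 0.0960 to 0.281). It was 4.40, 10.03, 1.58, 0 and 0 in 4-cell embryos, 14.3, 1.86, 0 and 1.99 in 8-cell embryos and 36.2, 13.8, 15.5 and 12.8 in 16-cell embryos. The 10.03 of 4-cell embryo 2 rested on 1 UMI in a cell of 4985 UMIs, while the 4.40 of 4-cell embryo 1 rested on 5. The 16-cell embryos overlapped the 8-cell embryos through 8-cell embryo 1 alone, and all of them were above the 4-cell embryos.

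From 8-cell to 16-cell Dab2 rose by a log2 fold change of 2.39 (SE 0.458, adjusted p = 0.00133), and from 4-cell to 16-cell by 3.78 (SE 0.4928, adjusted p = 2.59e-08). The rise from 8-cell to 16-cell was 3.24 without 8-cell embryo 1 and 1.71 without 16-cell embryo 1, and was called each time an embryo was left out. The smaller rise from 4-cell to 8-cell (1.39, SE 0.489, adjusted p = 0.0416) was less firm. It was 0.54 without 8-cell embryo 1, 0.87 without 4-cell embryo 4, 0.81 without 4-cell embryo 5 and 0.30 with equal weights, and in none of these was it called. From L2C to 4-cell the value was -0.90 and not called. In the 32-cell stage Dab2 ran from 0 to 65.0 copies with a median of 22.5, in blastocyst cells from 0 to 77.0 with a median of 17.1, and 1 UMI was found in mESC. The share of cells with a Dab2 UMI was 42.3% at 8-cell, 78.9% at 16-cell, 86.4% at 32-cell and 92.3% in blastocysts, and 28.8%, 66.2%, 74.7% and 70.3% at 10000 UMIs. At 8-cell all 8 cells of embryo 1 held it, and without that embryo the share was 16.7%.

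Maternal transcripts moved with Dab2 in part. The 8 oocyte markers (Zp1, Zp2, Zp3, Gdf9, Bmp15, Oosp1, H1foo and Bub1b) summed to 3647 copies in oocytes, 2679 in zygotes, 698.3 at E2C and 125.8 at L2C. From oocytes to E2C Dab2 went the other way, with stage means of 10.7 and 18.3 copies. Later sums were 205.3 at 4-cell, 119.0 at 8-cell, 228.6 at 16-cell, 25.4 at 32-cell and 286.1 in blastocysts. H1foo led from 4-cell to 16-cell and in blastocysts, where Zp1 and Zp2 were at 0. In 8-cell embryos they summed to 212.2, 28.3, 102.8 and 132.6 and in 16-cell embryos to 373.3, 18.2, 290.5 and 232.3, so the embryos highest in Dab2 at both stages were also highest in oocyte markers. Embryo 2 of the 16-cell stage, with 18.2, nevertheless held 13.8 copies of Dab2 and 8.71 of Lrp2, close to embryo 3. At 4-cell the order was another one. Embryo 2, highest in Dab2 on 1 UMI, had the lowest sum of oocyte markers (52.1). Embryos 4 and 5, with 0 Dab2, had sums of 210.7 and 228.4. What part these transcripts have in the Dab2 levels was not tested.

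Early and late stages differed in the first exon that Dab2 molecules used. Isoforms began at an upstream start (chr15:6386600-6386868, first exon ending at base 6386932) or at a downstream start (chr15:6389985-6390023, first exon ending at 6390428), and 1 isoform of 5 UMIs began between them at 6389072. The nearest starts of the upstream and downstream groups lay 3117 bases apart. Both first exons led to the same next exon, which starts at 6416806 and holds the start codon at 6416904, so neither first exon lies in the annotated coding sequence. In 1 upstream isoform of 5 UMIs the middle exon lay in between, and 1 downstream isoform of 13 UMIs had an intron inside the first exon. The last 15 bases of each first exon are shown in capitals, followed by the first 15 of the second exon, from GENCODE M21 transcripts on the plus strand.
Upstream first exon (chr15:6386918-6386932, chr15:6416806-6416820): AGCACTAGCTAGTCCgtgtactttgtgggt
Downstream first exon (chr15:6390414-6390428, chr15:6416806-6416820): AGGGCTGCTGAGAAGgtgtactttgtgggt
The upstream first exon is that of 5 annotated transcripts and 7 isoforms (212 UMIs), the downstream one that of 1 annotated transcript and 4 isoforms (64 UMIs). A far promoter with 5 annotated transcripts had no isoform.

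In oocytes, zygotes and E2C the downstream first exon was used in 63 of the 70 UMIs that showed either one (90.0%, 95% interval 80.5 to 95.9%). By stage it was 27 of 31, 25 of 26 and 11 of 13. From 8-cell to blastocyst it was used in 0 of 204 (0 to 1.79%): 0 of 23 at 8-cell, 0 of 96 at 16-cell, 0 of 39 at 32-cell and 0 of 46 in blastocysts. The 204 UMIs came from 52 cells, with 16, 4, 0 and 3 from the 8-cell embryos and 71, 15, 6 and 4 from the 16-cell embryos. The downstream first exon was thus seen in early stages and in none of the late UMIs that reached a first exon, while the upstream one was used at both, in 7 of the 70 early UMIs. Of 304 early isoform UMIs 234 showed neither first exon, so the early share rests on the other 70. Of 297 late isoform UMIs, 93 reached neither. The change fell in a gap, since L2C and 4-cell gave 2 such UMIs, 1 of each kind.

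Early and late stages also differed in an exon inside the coding sequence. This alternative exon (chr15:6429296-6429949) is exon 10 of 15 in the reference transcript Dab2-202, has 654 bases or 218 codons and keeps the reading frame, and it is known to separate the long from the short form of the adaptor. Of the annotated transcripts that span it, 3 hold it and 3 do not. The joins below are from GENCODE M21, plus strand, with 30 bases on each side and the alternative exon in capitals.
Entry (chr15:6424668-6424697, chr15:6429296-6429325): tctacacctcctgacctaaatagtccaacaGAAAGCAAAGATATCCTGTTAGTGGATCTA
Exit (chr15:6429920-6429949, chr15:6430954-6430983): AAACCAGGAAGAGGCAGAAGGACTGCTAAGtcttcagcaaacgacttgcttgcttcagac
Skip (chr15:6424668-6424697, chr15:6430954-6430983): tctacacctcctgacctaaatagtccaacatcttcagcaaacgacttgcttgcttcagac

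The exon was included in 74 of 75 UMIs that spanned it in oocytes, zygotes and E2C (98.7%, 95% interval 92.8 to 99.97%) and in 7 of 159 from 8-cell to blastocyst (4.40%, 1.79 to 8.86%). By stage it was 31 of 31, 27 of 28 and 16 of 16, then 4 of 19 at 8-cell (21.1%), 1 of 74 at 16-cell, 1 of 34 at 32-cell and 1 of 32 in blastocysts. Of the 4 UMIs with the exon at 8-cell, 3 were from embryo 2, and without that embryo the late share was 2.58%. Skipping UMIs came from 38 cells of the later stages, and 59 of the 73 at 16-cell were from embryo 1. At early stages the exon was held by 49 of 49 spanning UMIs with the downstream start, 5 of 5 with the middle one and 1 of 2 with the upstream one, so start and exon cannot be told apart there. At late stages the upstream start came with the exon in 7 UMIs and without it in 152. A fragment that begins inside the exon (57 UMIs, of which 24 in oocytes, 24 in zygotes and 5 in E2C) was not counted.

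**Figure D2:**
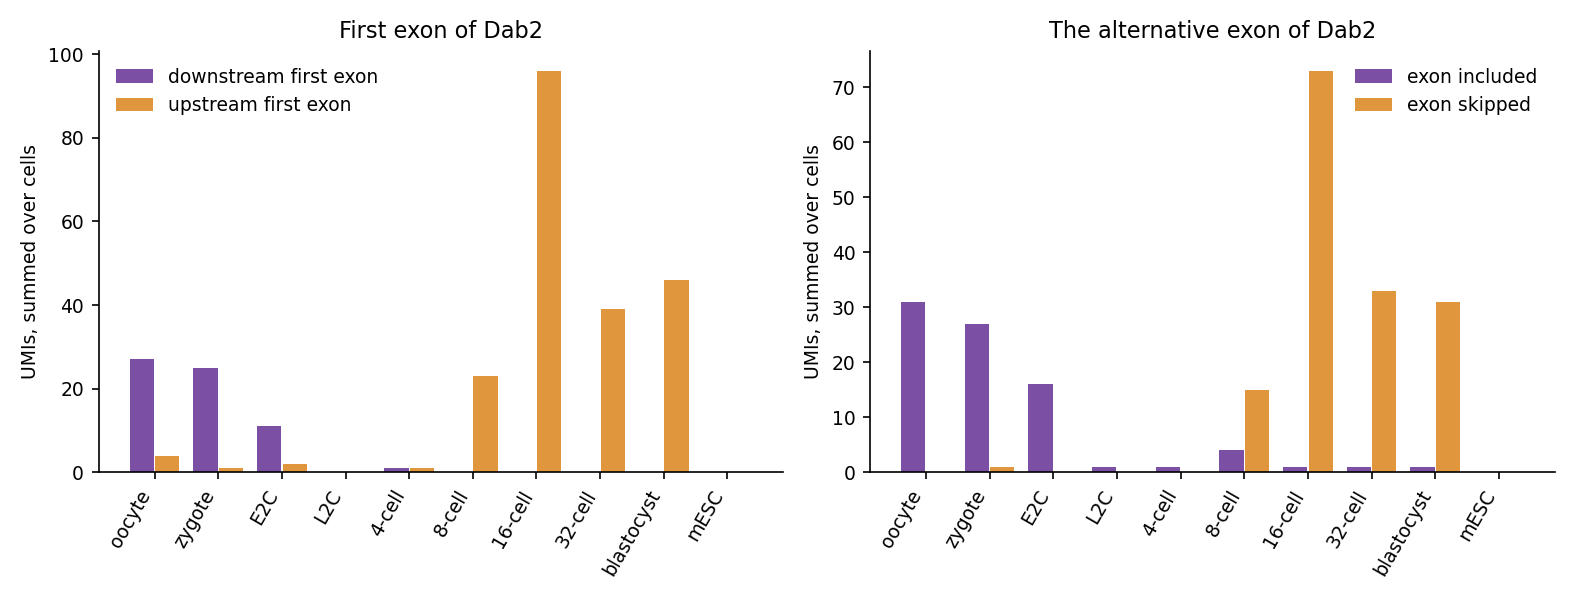
UMIs of Dab2 that showed either first exon (left) and that included or skipped the alternative exon (right), summed over the cells of a stage.

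**Figure D3:**
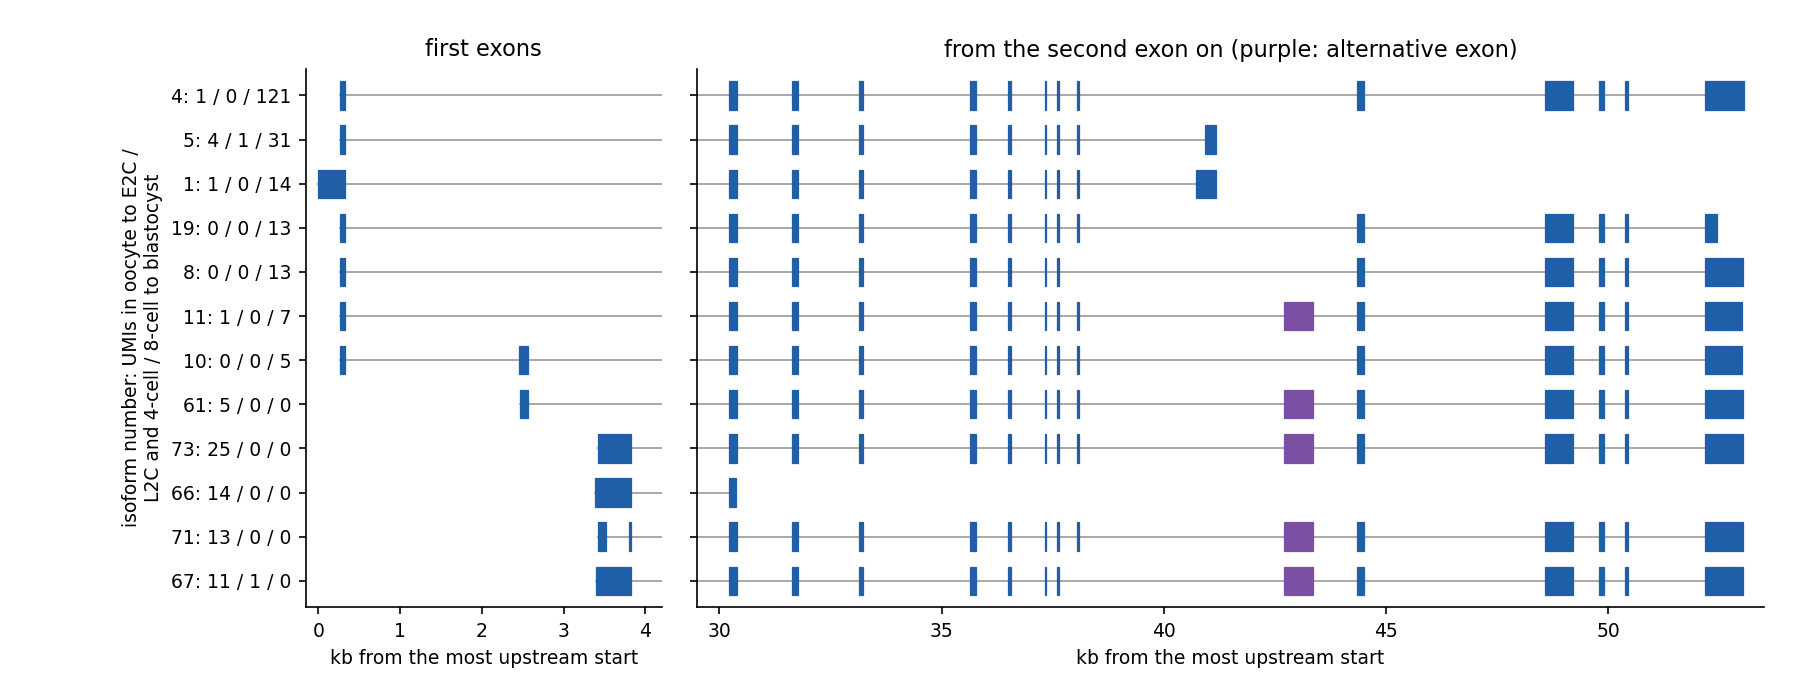
Exons of the 12 Dab2 isoforms that reach a first exon, by distance from the most upstream start. The label gives the isoform number and its UMIs in oocyte to E2C, in L2C and 4-cell, and in 8-cell to blastocyst.

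Some Dab2 molecules ended short of the alternative exon. At base 6427765, where 2 annotated transcripts end, 2 isoforms ended as well. Over all starts this end was seen in 5 of 290 early UMIs (1.72%) and 45 of 297 late ones (15.2%). Both isoforms with this end begin at the upstream start, and among UMIs with that start it was 5 of 7 early and 45 of 204 late. The short end was thus not more frequent late once the start was matched, though on only 7 early UMIs. Another isoform of 14 UMIs, all in oocytes, zygotes and E2C, had the downstream start and ended at base 6416974. The 19 Dab2 isoforms held 613 of 1288 Dab2 UMIs (47.6%), and those seen in fewer than 5 cells had been removed by the authors.

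From 8-cell to blastocyst every cell with an Lrp2 UMI also had a Dab2 UMI. These were 3 of 3 at 8-cell, 17 of 17 at 16-cell, 13 of 13 at 32-cell and 10 of 10 in blastocysts. Dab2 was seen in 11 of 26, 30 of 38, 19 of 22 and 12 of 13 cells of these stages, so some cells with Dab2 held no Lrp2 UMI. The 3 8-cell cells with Lrp2 were from embryo 1, where all 8 cells held Dab2, so no other outcome was possible there. Only 3 cells at 32-cell and 1 in blastocysts lacked Dab2, so the full overlap at these stages says little. Earlier, L2C embryo 5 and 4-cell embryo 5 each held 1 Lrp2 UMI and 0 Dab2 UMIs. Over cells their log2 levels correlated with r = 0.70 at 16-cell (38 cells), 0.69 at 32-cell (22) and 0.87 in blastocysts (13). Within the larger 16-cell embryos r was 0.72 (embryo 1, 11 cells) and 0.64 (embryo 2, 15 cells). These points share embryos, libraries and depth. Depth and Lrp2 gave r = 0.05, 0.24 and -0.45 at the 3 stages, but 0.70 within 16-cell embryo 1.

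The cells carry no inner or outer label, so the name of the list was checked against 22 trophectoderm markers. Summed, these were at 38.6 copies at 4-cell, 77.8 at 8-cell, 146.6 at 16-cell, 158.8 at 32-cell and 265.5 in blastocysts (61.9 in mESC), with Elf3 leading at 16-cell and 32-cell and Krt8 in blastocysts. Lrp2 followed the sum over cells with r = 0.71, 0.68 and 0.91 at 16-cell, 32-cell and blastocyst, and Dab2 with 0.54, 0.67 and 0.84. Within 16-cell embryos 1 and 2 Lrp2 gave 0.78 and 0.76 and Dab2 0.76 and 0.75. At 8-cell neither did so (-0.30 and 0.05 over 26 cells, with Lrp2 in 3).

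Sox2, a factor of inner cells and 1 of 16 inner markers listed, was set beside them. Nanog and Pou5f1 of the same list were more widespread. Nanog was seen in 20 of 38 16-cell, 20 of 22 32-cell and 12 of 13 blastocyst cells. Pou5f1 was seen in 38 of 38, 22 of 22 and 12 of 13, so every 16-cell and 32-cell cell with Lrp2 also held Pou5f1. At 16-cell no cell held both Lrp2 and Sox2 UMIs (17 and 4 cells), and at 32-cell none did (13 and 7 cells). In blastocysts 3 cells held both (10 and 5 cells). The median of Dab2 at 32-cell was 3.04 copies in the 7 cells with Sox2 and 35.3 in the 15 without, and that of Lrp2 was 0 and 10.0. In blastocysts the Lrp2 medians were 1.77 in 5 cells with Sox2 and 28.1 in 8 without, and those of Dab2 were 5.34 and 36.6. Dab2 was nevertheless seen in all 5 blastocyst cells and in 4 of 7 32-cell cells with Sox2. At 16-cell Dab2 differed less, with 12.6 in the 4 cells with Sox2 and 16.0 in the others. The summed list of 16 inner markers gave r = -0.30, -0.47 and -0.80 with Lrp2. Dppa5a held 419 of 538 copies of that sum at 16-cell, 396 of 479 at 32-cell and 586 of 758 in blastocysts. These values of r therefore describe mostly 1 gene. With 4 Sox2 cells at 16-cell, the lack of shared cells there may be chance. The working name therefore held for Lrp2 and Dab2 by the trophectoderm markers at all 3 stages, and by levels beside Sox2 from 32-cell on. Among the inner markers such levels are given for Sox2 only.

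**Figure D4:**
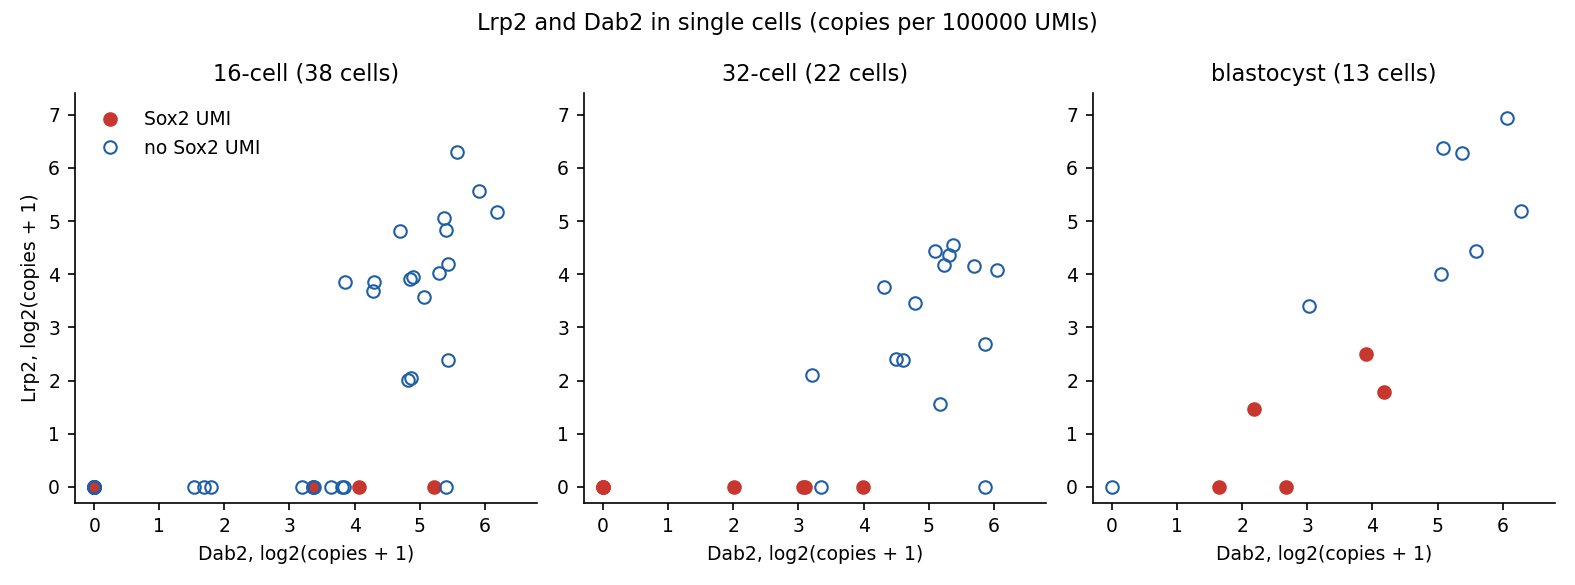
Lrp2 against Dab2 in single cells of 3 stages, as log2(copies + 1). Red points had at least 1 Sox2 UMI, and points at the same place overlap.

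Ctsb and Ctsd did not share this pattern, and Ctsl did so weakly and not at 16-cell. Ctsb gave r = -0.15, -0.29 and -0.54 with the summed trophectoderm markers and Ctsd -0.09, -0.09 and 0.26, while Ctsl went from -0.20 to 0.41 and 0.47. With Lrp2 the 3 genes gave between -0.67 (Ctsb, blastocyst) and 0.44 (Ctsd, blastocyst). Cubn and Amn were too sparse to place. Visceral endoderm also uses this receptor system, and its markers were mixed. Of 19 endoderm markers other than the members, Gata6 led from 8-cell to blastocyst (10.8 to 19.2 copies) in sums of 24.0 to 29.4, while Sox7 and Afp were at 0 in all 4 stages. Gata6 was seen in 25 of 26 8-cell, 32 of 38 16-cell, 22 of 22 32-cell and 13 of 13 blastocyst cells and rose from 4-cell to 8-cell by a log2 fold change of 3.44. Col4a1 was at 0.260 copies at 8-cell and 3.21 at 32-cell, Col4a2 at 0.355 and 2.37, and Lamb1 at 5.65 in blastocysts. Lrp2 gave r = 0.15, -0.33 and -0.01 with that sum. Of 7 cumulus and granulosa cell markers only Gja1 and Amhr2 reached 1 copy in any stage, and Fshr, Has2, Tnfaip6 and Vcan were at 0 from L2C on.

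The lysosomal proteases split into a pair that fell and a single gene that rose. Ctsb, a cysteine protease, had 0.5264 to 3.06 copies in E2C embryos and 39.9 to 105.7 in L2C embryos, with no overlap and a pooled ratio of 30.8 (95% interval 18.4 to 55.6). It was 31.9, 61.7, 50.7, 55.0 and 73.4 in 4-cell embryos, 8.80, 18.1, 5.99 and 23.4 in 8-cell embryos and 4.78, 11.5, 7.81 and 19.1 in 16-cell embryos. All 8-cell embryos were below all 4-cell embryos, and the 16-cell embryos overlapped the 8-cell ones. From 4-cell to 8-cell Ctsb fell by 1.91 on the log2 scale (SE 0.635, adjusted p = 0.0295), and from 4-cell to 16-cell by 2.72 (SE 0.639, adjusted p = 0.00115). The first was not called without 4-cell embryo 4 (-1.85), 4-cell embryo 5 (-1.67) or 8-cell embryo 1 (-1.55), nor by edgeR (-1.43) or DESeq2 (-1.70). Ctsb had a median of 2.00 copies in 32-cell cells, 3.95 in blastocyst cells and 10.9 in mESC.

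Ctsl, another cysteine protease, had the same outline. It was 1.75 to 14.6 copies in E2C embryos and 76.1 to 212.7 in L2C embryos (pooled ratio 34.5, 25.0 to 48.8). It was 165.8, 191.3, 198.9, 169.5 and 195.5 in 4-cell embryos, 40.9, 72.7, 67.7 and 56.9 in 8-cell embryos and 24.1, 39.0, 57.4 and 86.7 in 16-cell embryos. The fall lay between 4-cell and 8-cell embryos, which do not overlap. There it fell by 1.70 on the log2 scale (SE 0.562, adjusted p = 0.0289), and the value from 4-cell to 16-cell was -2.31, also called (SE 0.566, adjusted p = 0.00178). The first was not called without 4-cell embryo 4 (-1.74), 4-cell embryo 5 (-1.65) or 8-cell embryo 1 (-1.52), and the second not without 16-cell embryo 1 (-1.59). Medians were 20.7 copies in 32-cell cells, 26.4 in blastocyst cells and 22.0 in mESC.

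Ctsd, an aspartic protease, went the other way. It was 0, 1.004, 1.58, 1.17, 10.4 and 8.19 copies in L2C embryos, 6.995, 2.45, 11.2, 23.3 and 20.5 in 4-cell embryos, 25.9, 36.5, 21.4 and 68.3 in 8-cell embryos and 42.9, 48.9, 48.9 and 57.0 in 16-cell embryos. Neighbouring stages overlapped, but all 16-cell embryos were above all 4-cell embryos. Ctsd rose from L2C to 4-cell by a log2 fold change of 1.99 (SE 0.530, adjusted p = 0.0218) and was called each time an embryo was left out. From 4-cell to 8-cell the value was 1.29 (SE 0.504, adjusted p = 0.0735) and not called, while edgeR (1.76) and DESeq2 (1.72) called it. It was also called without 4-cell embryo 4 (1.67), 4-cell embryo 5 (1.64) or 8-cell embryo 1 (1.65). From 4-cell to 16-cell Ctsd rose by 1.61 (SE 0.507, adjusted p = 0.0174), which was 1.39 and not called without 4-cell embryo 1. Medians were 44.2 in 32-cell cells, 50.9 in blastocyst cells and 27.3 in mESC.

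**Figure D5:**
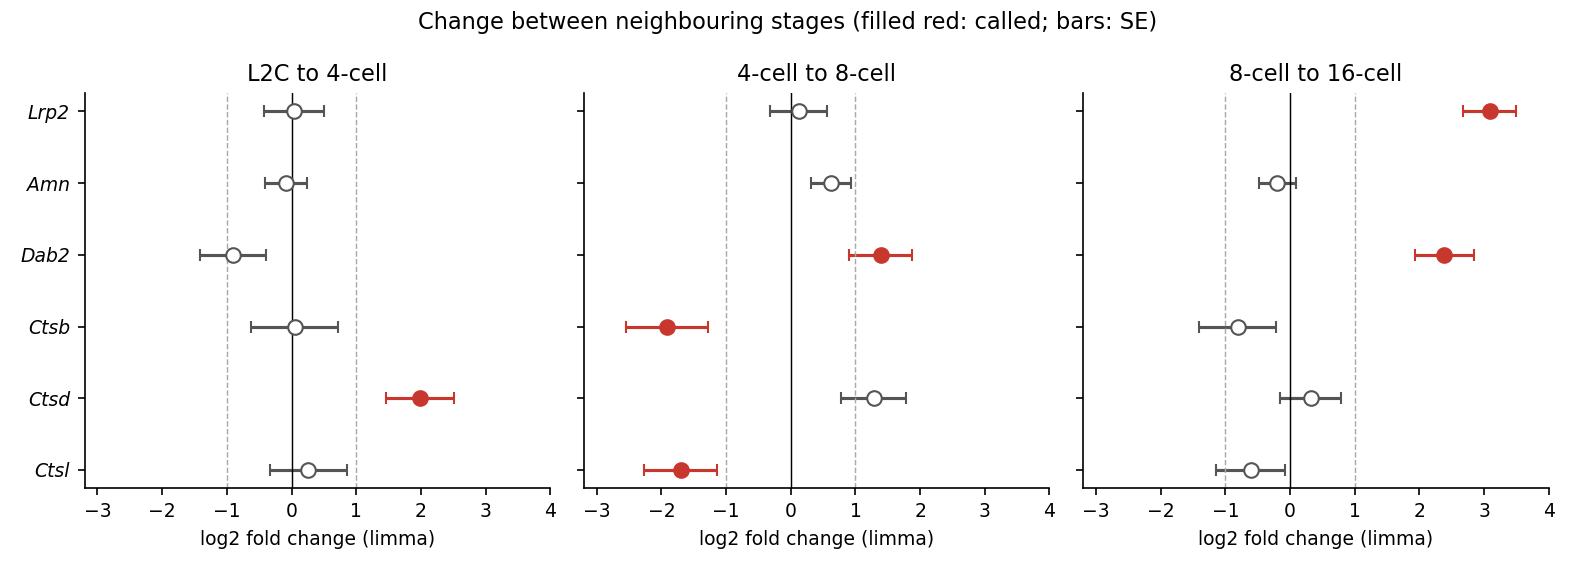
Log2 fold change with SE for the 6 members tested at 3 comparisons. Filled red points were called, and dashed lines mark the limit of 1.

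For each cathepsin the same isoform led at every stage. A single isoform that matches the annotated 10 exons held 468 of 619 Ctsb isoform UMIs, and another over 9 exons held 708 of 1043 of Ctsd. In Ctsl 1 isoform held 1753 of 2927. Ctsl ended at a pair of sites. The farther site held 82.1% of all isoform UMIs, with 690 against 141 at L2C, 709 against 148 at 4-cell and 304 against 79 at 8-cell. It was 39 against 5 in oocytes, 44 against 4 in zygotes, 27 against 8 at E2C, 332 against 75 at 16-cell, 119 against 41 at 32-cell and 123 against 23 in blastocysts, so the farther site led at every stage. Most other cathepsin isoforms were incomplete at the 5-prime end.

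Other genes of the uptake route were read as lists, beside the shares of all genes called at the 3 steps given above (6.69%, 15.0% and 3.36%). Of 10 tested LDL receptor relatives, 1 was called down from L2C to 4-cell, 1 up and 1 down from 4-cell to 8-cell and none from 8-cell to 16-cell, with medians of 0.12, -0.14 and 0.34 beside -0.06, -0.16 and 0.03 over all genes tested. The riser was Lrpap1, the chaperone that guards megalin on its way to the surface, from 4.90 to 20.6 copies in 4-cell embryos to 68.7 to 185.0 in 8-cell embryos (log2 fold change 2.87, SE 0.441, adjusted p = 1.82e-06). It thus rose at an earlier stage than Lrp2. Of 8 tested other receptors and ligands, none was called in the first 2 comparisons and 1 up and 1 down in the third.

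Of 24 clathrin coat and adaptor genes tested, 1 was called down from L2C to 4-cell, 2 up and 3 down from 4-cell to 8-cell, and 2 up and 1 down from 8-cell to 16-cell (medians -0.17, -0.10 and 0.34). Epn2 fell by 1.27 on the log2 scale in the first, Ap2s1 rose by 2.25 and Cltb and Itsn1 fell by 1.60 and by 1.24 in the second, and Ap2a2 rose by 1.37 in the third. Of 24 endosome genes tested, 1 was up and 3 down, then 3 up, then 1 up (medians -0.15, 0.24 and 0.39). Vps29, of the retromer, fell by 1.85 from L2C to 4-cell and rose by 1.28 from 8-cell to 16-cell, while Snx2 (1.69) and Ehd1 (1.47) rose from 4-cell to 8-cell. Adjusted p was above 0.05 for Epn2 (0.0713), Ap2a2 (0.0733) and the later rise of Vps29 (0.151). The 12 tested genes of the apical pole and microvilli gave none, 1 up and 1 up.

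Lysosome genes were called in the earlier steps, in which more of all genes were called as well. Of 24 lysosome membrane, enzyme and sorting genes tested, 3 were up from L2C to 4-cell, 4 up and 1 down from 4-cell to 8-cell and none from 8-cell to 16-cell. Grn rose by 2.81 in the first and Psap by 1.90 in the second, in which Lamp2, a membrane protein of lysosomes, fell by 1.87. Of 9 other proteases and cystatins tested, Ctsz rose by 1.85 from L2C to 4-cell, and Cstb, an inhibitor of cysteine cathepsins, rose by 2.03 and Ctsh fell by 1.81 from 4-cell to 8-cell. The 15 subunits of the vacuolar proton pump gave 1 call in neighbouring stages (Atp6v1f, 1.81, from 4-cell to 8-cell). Over the whole span from 4-cell to 16-cell 4 were called up (26.7%) and 0 down, beside 6.45% up and 11.2% down of all genes tested. Such shares were not particular to the pump. Over that span 25% of other receptors and ligands, 20.8% of endosome genes and 20% of LDL receptor relatives were called up. It was 16.7% each for the clathrin coat, lysosome membrane and apical pole lists, and 0% for other proteases and cystatins.

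The genes whose stage means were most like those of the receptor genes and the adaptor over 9 stages from oocyte to blastocyst, among genes with at least 10 copies in some stage, were these. For Lrp2 they were Scd2 (r = 0.984), S100a11 (0.972) and Mageb16 (0.967), each highest in blastocysts. For Dab2 they were Hdac2 (0.951), Tdrp (0.942) and Capza2 (0.931). For Amn they were Hnrnpc (0.934), Glb1 (0.896) and Pbk (0.889), and for Cubn, on 7 UMIs, Golga7 (0.862), Mcm10 (0.728) and Rbm14 (0.722). The 9 points share stage and depth, and no p is given for such a choice of the highest values.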

How the data were processed

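The authors made consensus reads, assigned cell barcodes and UMIs, mapped reads to mm10, assigned genes, collapsed isoforms, kept 4 SQANTI classes and removed isoforms in fewer than 5 cells. The authors deposited the gene and isoform tables as CPM divided by 10, which the methods describe as copies per 100000 mapped reads. Here the unit is read as copies per 100000 UMIs of a cell. The authors deposited the columns of oocytes, zygotes, E2C, L2C, 4-cell, blastocyst and mESC cells, entered as score, in that unit too.

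UMIs were recovered from the values, and 100% of the values above 0 were whole multiples of 1 UMI within a tolerance of 0.1. Cells held 4985 to 389775 UMIs (median 38914), so 1 UMI is worth several copies in most late blastomeres. Cell values were averaged per embryo and fitted over 7 stages with limma 3.58.1 (trend, array weights) on log2(value + 1), in R 4.3.3. The filter kept genes at 1 copy or more in at least 4 embryos. Adjustment of p followed Benjamini and Hochberg over the 11682 tested genes. The unit is normalized, so edgeR 4.0.16 and DESeq2 1.42.0 on recovered UMIs served only as alternatives, with 1234 and 1179 genes called from 4-cell to 8-cell. The fit was tested on simulated data. No paired analysis was possible because no embryo was sampled at more than 1 stage.

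Intervals of pooled UMIs (Poisson) and of shares (binomial) are exact 95% intervals of counting error. Isoform parts were compared with GENCODE M21 by position, and starts within 500 bases were joined. The members and lists were chosen with earlier results of these data known. Beside the members, up to 3 called genes per list and direction at 10 or more copies were named, and the 3 nearest by Pearson r. Python 3.11.15, numpy 2.4.6, scipy 1.17.1, pandas 2.3.3 and matplotlib 3.10.9 were used. Split oocytes of the fourth run lie outside these stages and were left out.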

Additional observations from a re-analysis of the deposited data

Results flagged for a closer look

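Of 35 sets of embryo values of the members, 8 held an embryo far from the others, where chance gives about 1 in 20. Oocyte 7 was highest for Ctsb (11.2 copies, next 1.20) and for Ctsd (10.7, next 4.48). Zygote 6 was highest for Ctsb (17.7, next 2.11) and for Ctsd (7.44, next 4.33). E2C embryo 5 was highest for Ctsl (14.6, next 4.41). L2C embryo 1, a single cell of 17971 UMIs, was highest for Amn (5.56, next 0.985) on 1 UMI. For Dab2, 8-cell embryo 1 (14.3, next 1.99) and 16-cell embryo 1 (36.2, next 15.5) were highest. The causes were not tested.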

How the results depend on the processing

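Of 434 values of the members under other settings, 379 kept direction and side of the threshold, 28 lost the call, 8 gained one and 19 changed sign. The causes were not tested. Genes called from L2C to 4-cell were 138 with a pseudocount of 5, 1183 without array weights, 473 with DESeq2 (6234 tested) and 485 with the summed isoform table (8305 tested), and 430 to 902 when 1 embryo was left out. From 4-cell to 8-cell they were 544 with a pseudocount of 5. From 8-cell to 16-cell they were 47 with a pseudocount of 5, 261 with edgeR, 203 with DESeq2 and 256 with only the stages compared, of 6234, 6234 and 6529 genes tested. From 4-cell to 16-cell 754 were called with a pseudocount of 5, beside 2064.

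Members called from 4-cell to 8-cell were 1 with a pseudocount of 0.1, 1 with no filter and 1 to 3 without 1 embryo. From 8-cell to 16-cell they were 1 with the median over cells, edgeR or DESeq2, since Lrp2 did not pass the count filter of the last 2. From 4-cell to 16-cell they were 2 with a pseudocount of 0.1 and 3 with DESeq2. Calls at adjusted p under 0.05 gave the same counts.

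From L2C to 4-cell Lrp2 was -0.0146 without array weights and -0.18 with the median, and -0.18 to 0.22 without 1 embryo. Ctsb was -0.12 without weights, -0.0543 with edgeR and -0.00526 with DESeq2, and -0.19 to 0.22 without 1 embryo, and Amn -0.43 to 0.12. From 4-cell to 8-cell Lrp2 was -0.22 to 0.34. From 8-cell to 16-cell Amn was -0.32 to 0.12, Ctsd -0.0448 to 0.69 and Ctsl -0.92 to 0.10. None of these was called. Leaving out embryos from pooled ratios and shares of cells was added after the data were seen. The late share of the Dab2 exon was 2.58 to 6.06% without 1 8-cell or 16-cell embryo. The early share was 98.5 to 98.6% without 1 E2C embryo. Oocytes and zygotes, with 31 and 27 of the early UMIs that held the exon, were not left out in turn. With edgeR the median of all genes moved from 0.03 to 0.21 at 8-cell to 16-cell, and Dab2 stayed called (1.90). At a median of 32481 UMIs in 16-cell cells a transcript of few copies is missed in many cells.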
